A study of Mus musculus with 4 samples.

Results

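The genes that mark the primitive streak and the mesendoderm were followed in mouse embryoid bodies treated with the histone demethylase inhibitor GSK-J4. The set was a list of 10 symbols, T, Eomes, Mixl1, Gsc, Mesp1, Wnt3, Evx1, Cdx1, Lhx1 and Foxa2. Probe sets were matched where the platform annotation gave exactly that symbol, and the brightest probe set by mean over the arrays stood for a gene. This found 9 of the 10 genes, among 22180 genes measured in all. No probe set was matched to T, which encodes brachyury, so T was not analysed here. Only that symbol was matched, so this does not show that the array lacks probes for brachyury. Each of the 9 genes had a single matching probe set.

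The embryoid bodies, aggregates in which embryonic stem cells start to differentiate, were made from the R1 mouse embryonic stem cell line after removal of the feeder cells. All were kept for 18 h without LIF, the cytokine that holds these cells in self-renewal. The 4 groups were GSK-J4 at 1.88 µM in EB medium, GSK-J5 at 1.88 µM in EB medium, DMSO in EB medium, and EB medium alone, and each group was 1 array. GSK-J4 is an ester that cells convert to GSK-J1, an inhibitor of the KDM6 demethylases, and GSK-J5 gives the regioisomer GSK-J2, which is far less active on them. With 1 array for each treatment no difference could be tested, and no p-value is given.

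The primitive streak is the posterior site of the gastrulating embryo where epiblast cells become mesoderm and definitive endoderm. WNT3 starts this programme together with NODAL and BMP4, and T-box and homeobox transcription factors carry it out. Mesendoderm is the name for streak cells that can still give either layer. KDM6 enzymes remove methyl groups from a lysine of histone H3, a mark that polycomb complexes place on developmental genes of this kind in stem cells.

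Promoter windows in RefSeq (GRCm38.p6, from 250 bases before to 50 bases after a start site) were found for 8 of the 10 genes, T, Eomes, Gsc, Mesp1, Wnt3, Evx1, Lhx1 and Foxa2. Those of Eomes, Lhx1 and Mesp1 are shown because these 3 genes lay lowest in GSK-J4 relative to the controls among the measured genes with a window. Capitals mark matches on either strand to CTTTGAT or CTTTGAA, which TCF and LEF factors bind, to TCACACCT, a T-box motif, to TGTGGATT or TGTGTATT, for FOXH1, or to GTCTAGAC, for SMAD proteins. The Eomes window is chr9:118477939-118478238 on the plus strand, the Lhx1 window chr11:84525485-84525784 on the minus strand and the Mesp1 window chr7:79793541-79793840 on the minus strand.
Eomes: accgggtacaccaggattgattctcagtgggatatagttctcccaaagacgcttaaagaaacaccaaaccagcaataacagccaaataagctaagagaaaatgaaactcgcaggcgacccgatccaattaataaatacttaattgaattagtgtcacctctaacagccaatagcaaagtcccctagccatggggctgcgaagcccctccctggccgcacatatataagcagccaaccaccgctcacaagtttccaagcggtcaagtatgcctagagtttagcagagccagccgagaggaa
Lhx1: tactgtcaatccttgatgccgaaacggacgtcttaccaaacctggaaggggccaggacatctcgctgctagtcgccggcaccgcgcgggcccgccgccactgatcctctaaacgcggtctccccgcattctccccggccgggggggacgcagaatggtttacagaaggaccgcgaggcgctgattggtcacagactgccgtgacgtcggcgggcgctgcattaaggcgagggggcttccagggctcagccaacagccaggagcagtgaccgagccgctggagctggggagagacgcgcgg
Mesp1: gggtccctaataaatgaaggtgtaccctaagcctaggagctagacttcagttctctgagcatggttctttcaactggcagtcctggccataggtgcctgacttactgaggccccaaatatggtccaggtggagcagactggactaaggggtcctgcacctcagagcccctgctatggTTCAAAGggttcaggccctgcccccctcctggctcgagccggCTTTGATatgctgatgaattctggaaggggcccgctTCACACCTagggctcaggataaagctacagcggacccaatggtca

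The Mesp1 window held CTTTGAA on the minus strand from base -73, CTTTGAT on the plus strand from base -31 and TCACACCT on the plus strand from base 6, counted from the start site with no base 0. These letters were not in the Eomes and Lhx1 windows. A TCF/LEF match stood in 2 of the 9 windows of measured genes, that of Mesp1 and 1 of the 3 windows of Foxa2, and in 8.65% of all 32851 windows. The T-box motif stood in 1.28% of all windows, a FOXH1 motif in 1.82% and the SMAD motif in 0.213%, and none of the 9 windows held a FOXH1 or SMAD match.

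Levels are log2 values made with RMA, and the base 2 was inferred from their range. The 4 arrays had medians of 6.63 to 6.65 over 41345 probe sets. The level filter was a mean of 6.59 or more, the 40th percentile of the means of all measured genes, and 13308 genes passed it. Its margin is the distance of the GSK-J4 level from the nearest of the 3 controls when it lies outside all of them, and is 0 when it lies among them. A margin of 0.585 corresponds to 1.5-fold. The level of a probe set depends on its probes, so levels are compared between arrays and not between genes.

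Streak genes read at low to middling levels in all 4 treatments, and Eomes was the 1 gene whose GSK-J4 level lay 1.5-fold or more under every control. Of the 9 measured genes, 7 passed the level filter: Eomes, Mixl1, Gsc, Wnt3, Evx1, Lhx1 and Foxa2. Lhx1 and Evx1, with means of 6.86 each, were the passing genes closest to the filter, while Cdx1, with a mean of 6.48, fell just short and Mesp1 averaged 6.12. Their means stood between the percentiles 31.8 (Mesp1) and 59.5 (Eomes) of all measured genes. The arrays hold bulk RNA, in which fewer cells of a kind and less RNA for each cell cannot be told apart.

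**Figure D1:**
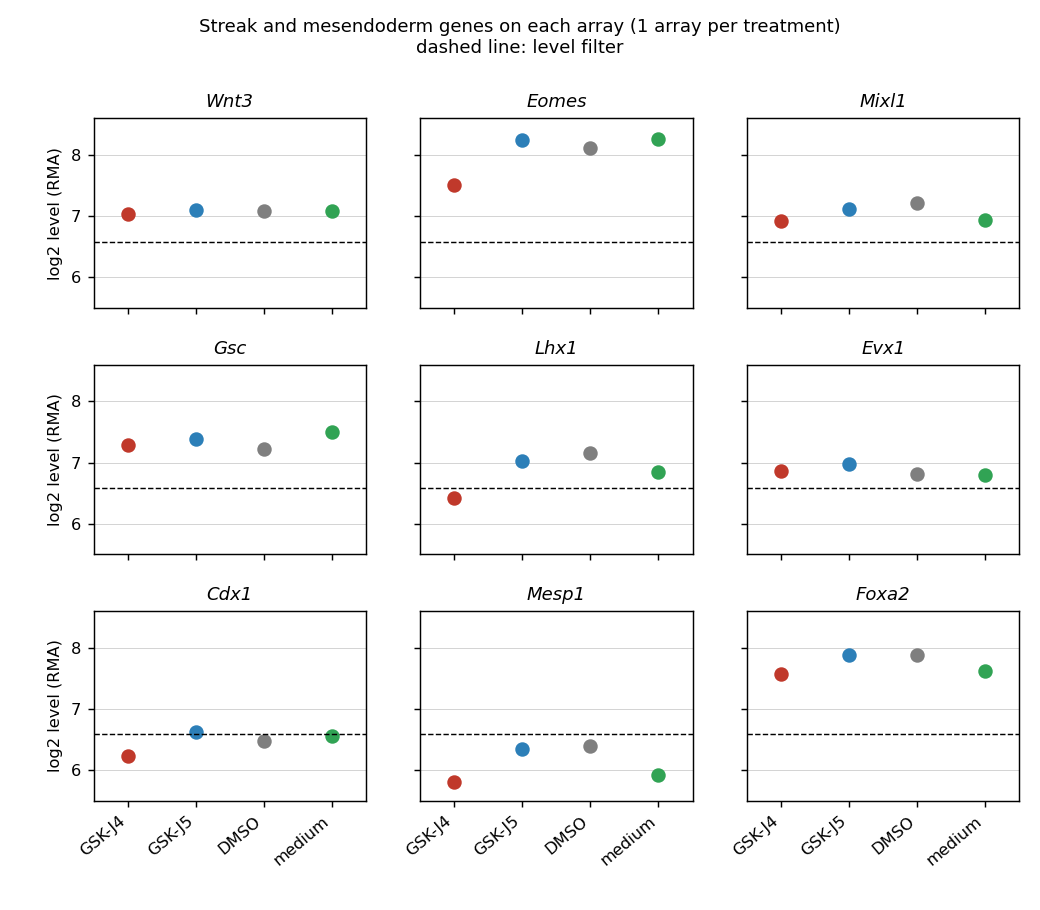
Log2 level of each of the 9 measured genes on the 4 arrays, 1 point for each array, with the treatments along the horizontal axis and the level filter at 6.59 as a dashed line. Relative to the nearest control, GSK-J4 lies lowest in Eomes (7.51, below 8.11) and Lhx1 (6.42, below 6.85), while Wnt3 spans only 7.04 to 7.10 over the 4 arrays.

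Wnt3, the secreted ligand needed to form the streak, hardly differed between treatments. It read 7.04 in GSK-J4, against 7.10 in GSK-J5, 7.08 in DMSO and 7.08 in medium. The GSK-J4 array was the lowest, by a margin of -0.04, and the 3 controls themselves spanned 0.02.

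Eomes, a T-box factor required for definitive endoderm and for mesoderm to leave the streak, had the lowest margin of the measured genes. Its level was 7.51 in GSK-J4, against 8.24 in GSK-J5, 8.11 in DMSO and 8.26 in medium. The controls lay within 0.15 of each other, and all stood above GSK-J4. The difference was -0.73 from GSK-J5, -0.60 from DMSO and -0.75 from medium, which puts GSK-J4 1.66-fold below GSK-J5 and 1.52-fold below the nearest control. That margin, -0.60, is just past the 1.5-fold line, and 0.789% of the 13308 genes past the filter had a margin as low or lower. It was -0.59 after median centring, -0.65 under loess and -0.67 after repeated quantile normalization.

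Lhx1, a LIM homeobox gene of the anterior streak, node and head organizer, came next. On the 4 arrays it read 6.42 in GSK-J4, against 7.02 in GSK-J5, 7.16 in DMSO and 6.85 in medium. All 3 controls were higher, but they spread over 0.31, and the GSK-J4 level was under the filter level, so the size of the gap is not exact. The differences were -0.60 from GSK-J5, -0.74 from DMSO and -0.43 from medium. The gap was past 1.5-fold against GSK-J5 and DMSO but not against medium, and 2.13% of the genes past the filter had a margin as low as its -0.43. Another probe set, annotated to both Lhx1 and its antisense neighbour Lhx1os and not used, read 4.98 in GSK-J4, against 4.90 in GSK-J5, 5.17 in DMSO and 4.73 in medium. There GSK-J4 lay among the controls, at levels far under the filter.

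Among the other homeobox genes no gap reached 1.5-fold. Mixl1, a paired-type factor of nascent mesendoderm, had 6.92 in GSK-J4, against 7.11 in GSK-J5, 7.22 in DMSO and 6.94 in medium. GSK-J4 and medium lay within 0.02 of each other in Mixl1, and the other arrays were higher. For Gsc, the goosecoid factor of the anterior streak, the values were 7.28 in GSK-J4, against 7.38 in GSK-J5, 7.23 in DMSO and 7.50 in medium. Evx1, an even-skipped relative of the posterior streak, read 6.86 in GSK-J4, against 6.97 in GSK-J5, 6.81 in DMSO and 6.79 in medium. In both Gsc and Evx1 the GSK-J4 level lay among the controls.

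Cdx1, a caudal-type factor that patterns the posterior axis, read 6.24 in GSK-J4, against 6.63 in GSK-J5, 6.48 in DMSO and 6.56 in medium. GSK-J4 was the lowest by -0.24, and 7.42% of the genes past the filter had a margin as low. Cdx1 did not pass the filter itself, so this share comes from genes with higher means. Of the 4 levels only that in GSK-J5 reached the filter, and the size of the gap is not exact.

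Mesp1, a basic helix-loop-helix factor of the earliest cardiac and cranial mesoderm, was the dimmest of the 9. It read 5.81 in GSK-J4, against 6.35 in GSK-J5, 6.40 in DMSO and 5.93 in medium. No array reached the filter, and the controls spread over 0.47, more than the 0.12 between GSK-J4 and medium. The differences of -0.54 from GSK-J5 and -0.59 from DMSO are therefore not shown to lie above background signal.

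Foxa2, a forkhead factor of the anterior streak, node and definitive endoderm, had 7.57 in GSK-J4, against 7.88 in GSK-J5, 7.89 in DMSO and 7.62 in medium. GSK-J4 was the lowest array by -0.05 only. It lay -0.31 from GSK-J5 and -0.32 from DMSO, while the controls spanned 0.27.

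Taking the set as a whole, 1 of the 7 passing genes (Eomes) was lower in GSK-J4 by 1.5-fold and 0 were higher. Over all genes past the filter the same rule gave 0.842% lower and 2.21% higher. By any amount, 7 of the 9 measured genes read below all 3 controls and 0 above, beside 36.3% below and 30.6% above over all measured genes. Restricted to the passing genes these were 5 of 7 below and 0 above, beside 35.5% below and 38% above over all genes past the filter. Of these 5, Mixl1, Wnt3 and Foxa2 had margins no larger than 0.05 in size. The share above all controls differs with level (30.6% and 38%), and none of these shares is matched to the levels of the 9 genes. The genes of the set were chosen with earlier results of these data known. Their counts here and against each control below are therefore a description only.

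Set against its isomer GSK-J5 at the same dose and time, GSK-J4 had the lower level in 9 of the 9 genes, with differences from -0.73 (Eomes) to -0.06 (Wnt3). Of all measured genes 53.2% were lower in that pair. The median difference of the 9 genes was -0.31, beside -0.02 over all measured genes, and -0.19 over the 7 that passed. Past 1.5-fold were Eomes and Lhx1, 2 of the 7, beside 1.39% of the genes past the filter. A negative median against GSK-J5 was not particular to the set. The 11 lists described below all had one, from -0.49 (formative and epiblast markers) to -0.01 (naive markers), with -0.25 for feeder fibroblast markers.

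Against DMSO, 7 of the 9 were lower in GSK-J4, beside 52% of all measured genes, and the median was -0.30, beside -0.02. Eomes and Lhx1 again were past 1.5-fold, beside 1.57% of the genes past the filter. Against medium, 8 of the 9 were lower, beside 51.8% of all measured genes. The median was -0.12, beside -0.01, and Eomes was the only passing gene past 1.5-fold, beside 1.68% of the genes past the filter. These 3 comparisons share the GSK-J4 array and so are not independent of each other.

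**Figure D2:**
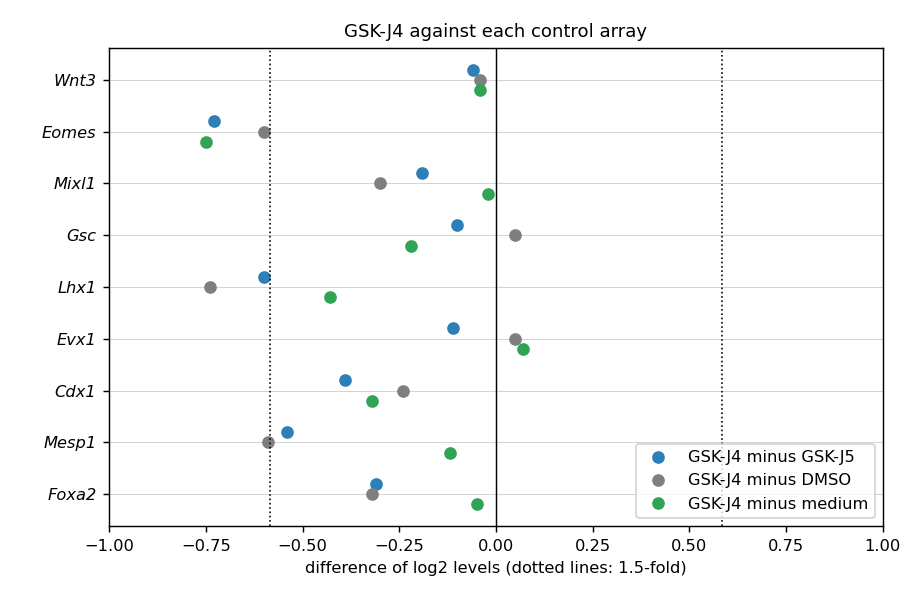
Difference of log2 levels between GSK-J4 and each control for the 9 genes, with 1 point for each control and dotted lines at 1.5-fold. All 3 points of Eomes lie past the lower line (-0.73, -0.60 and -0.75), while the GSK-J4 minus medium points of Mixl1, Mesp1 and Foxa2 (-0.02, -0.12 and -0.05) lie closer to 0 than their other points.

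The size of the shift depended on the control, since medium read lower than the other controls for several genes. In Mixl1, Mesp1, Lhx1 and Foxa2 both GSK-J4 and medium lay below both GSK-J5 and DMSO. This order, noticed after the values were seen, held in 4 of the 9 genes and in 18.7% of all measured genes. Among the controls, GSK-J5 minus medium had a median of 0.17 over the 9 genes, beside 0.00 over all measured genes, and ranged from -0.12 (Gsc) to 0.42 (Mesp1). GSK-J5 minus DMSO had a median of 0.02, beside 0.01, and ranged from -0.14 (Lhx1) to 0.16 (Evx1). DMSO minus medium had a median of 0.02, beside -0.01, with 0.47 for Mesp1, 0.31 for Lhx1, 0.28 for Mixl1 and 0.27 for Foxa2 at the high end and -0.27 for Gsc at the low end. No passing gene of the set reached 1.5-fold between any pair of controls. The controls spanned a median of 0.27 in these genes, more than the 0.16 over all measured genes.

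**Figure D3:**
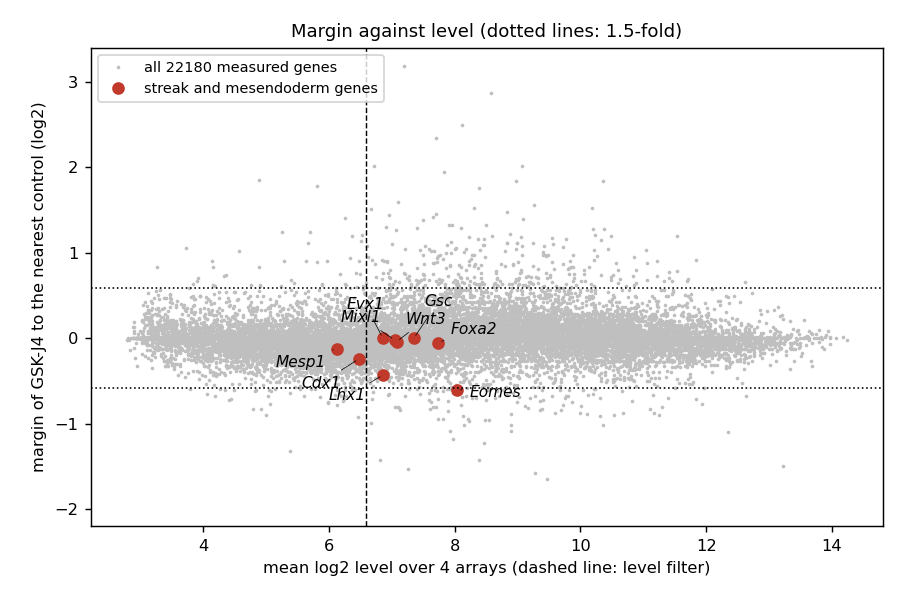
Margin of GSK-J4 to the nearest control against the mean log2 level over the 4 arrays, for all 22180 measured genes (grey) and the 9 streak and mesendoderm genes (red); the dashed line is the level filter and the dotted lines are 1.5-fold. Eomes (-0.60) is the only red point past a dotted line, and Gsc and Evx1 lie at 0.

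The genes closest to Eomes over the 4 arrays, by the Euclidean distance between log2 values centred on each gene's own mean, were Slc5a4b (0.0328), Trib1 (0.0456) and Cldn3 (0.0616), among 13307 other genes past the filter. Slc5a4b, of the sodium-glucose cotransporter family, read 6.15 in GSK-J4, against 6.92 in GSK-J5, 6.78 in DMSO and 6.94 in medium. Trib1, a pseudokinase, had 7.98 in GSK-J4, against 8.67 in GSK-J5, 8.53 in DMSO and 8.73 in medium. In Cldn3, a tight junction claudin, GSK-J4 stood at 8.44, against 9.22 in GSK-J5, 9.02 in DMSO and 9.16 in medium. With 4 arrays such closeness is a description only.

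Other streak and mesendoderm genes were lower in part. Of 25 listed, 24 were measured and 20 passed the filter, of which 2 were lower by 1.5-fold and 0 higher. By any amount 14 of the 24 read below all controls and 3 above. The shares to set beside this and the later lists are 0.842% lower and 2.21% higher by 1.5-fold over genes past the filter. By any amount they are 36.3% below and 30.6% above all controls over all measured genes. Lef1, a transcription factor that works with beta-catenin, read 8.19 in GSK-J4, against 9.84 in GSK-J5, 9.90 in DMSO and 9.94 in medium, and all controls lay more than 3-fold above it. Hoxb1, an anterior Hox gene that comes on in the posterior streak, read 6.48 in GSK-J4, against 7.32 in GSK-J5, 7.29 in DMSO and 7.31 in medium. The GSK-J4 level of Hoxb1 was under the filter, so its margin of -0.81 is not exact. The list had a median difference of -0.20 from GSK-J5, -0.20 from DMSO and -0.13 from medium.

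Genes of the signalling pathways were not uniformly lower. Ligands, receptors, antagonists and target genes are mixed in this list, so its counts do not measure the signals themselves. Of 46 NODAL, WNT and BMP pathway components, 44 were measured and 42 passed; 1 was lower by 1.5-fold (Lef1) and 1 higher. The higher gene was Wls, which escorts WNT proteins to the cell surface, with 7.59 in GSK-J4, against 6.79 in GSK-J5, 6.77 in DMSO and 6.75 in medium. By any amount 15 of the 44 read below all controls and 13 above, near the shares over all measured genes (36.3% and 30.6%). The list's median difference from GSK-J5 was -0.04. Named after their values were seen, the ligand genes on this list did not share a direction. Nodal read 11.40 in GSK-J4, against 11.13 in GSK-J5, 11.09 in DMSO and 11.22 in medium, the highest of the arrays by 0.18. Bmp4 read 10.82 in GSK-J4, against 11.09 in GSK-J5, 10.95 in DMSO and 11.03 in medium, the lowest by -0.13. Wnt3a, the closest relative of Wnt3, read 6.55 in GSK-J4, among the controls at 6.63 in GSK-J5, 6.50 in DMSO and 6.78 in medium. Further ligand genes on the list were Gdf3 and Bmp7, above all controls by 0.03 and 0.10, and Wnt8a and Bmp2, each with a margin of 0. Also named after their values were seen, Foxh1, the forkhead partner of SMAD proteins in NODAL signalling, read 11.28 in GSK-J4, against 10.86 in GSK-J5, 10.92 in DMSO and 11.02 in medium, and the WNT target Axin2 7.91 in GSK-J4, against 8.46 in GSK-J5, 8.45 in DMSO and 8.53 in medium. Neither reached 1.5-fold, and a further probe set of Axin2 had a margin of -0.19.

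Genes of the layers that leave the streak gave 0 past 1.5-fold in either direction. Among 20 nascent mesoderm genes 11 passed the filter, and the list's median difference from GSK-J5 was -0.25, with 12 of 20 below all controls and 2 above. The passing genes farthest from GSK-J5 were Etv2 and Tbx3. Etv2, a factor of blood and vessel precursors, read 7.40 in GSK-J4, against 7.90 in GSK-J5, 7.82 in DMSO and 7.91 in medium. Tbx3, a T-box gene that stem cells also express, read 10.82 in GSK-J4, against 10.38 in GSK-J5, 10.26 in DMSO and 10.37 in medium. Among 17 endoderm and node genes 12 passed, the median was -0.10, and 7 of the 17 lay below and 7 above all controls. Among the 12 that passed, Gata3 (6.79 in GSK-J4, with the controls at 7.15 to 7.19) and Otx2 (9.11 in GSK-J4, with the controls at 9.42 to 9.50) differed most from GSK-J5 there. A further probe set of Gata3 had a margin of -0.12. Gata3 is also on the trophoblast list read below, and Otx2 on the formative and epiblast list.

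Relatives of the 10 genes by sequence family gave 0 past 1.5-fold as well. Of 32 T-box, LIM homeobox, caudal, forkhead, Wnt and other homologues, all measured, 18 passed the filter, with 17 of 32 below all controls, 5 above and a median difference from GSK-J5 of -0.13. The passing genes farthest from GSK-J5 were Tbx2 and Lhx4. Tbx2, a T-box repressor, read 6.30 in GSK-J4, against 6.87 in GSK-J5, 6.69 in DMSO and 6.70 in medium. Lhx4 read 7.18 in GSK-J4, against 7.63 in GSK-J5, 7.44 in DMSO and 7.36 in medium, and neither gene reached 1.5-fold.

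**Figure D4:**
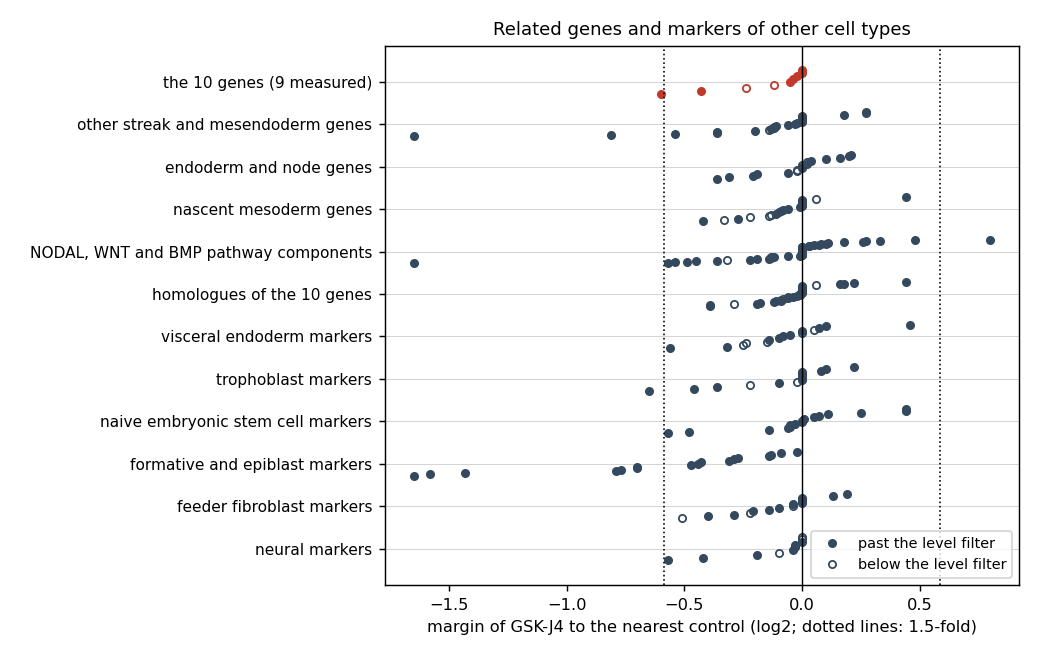
Margin of GSK-J4 to the nearest control (log2) for each measured gene of the set (red) and of 11 related or marker lists (dark), filled where the gene passed the level filter and open where it did not; dotted lines are 1.5-fold. All 17 formative and epiblast markers lie left of 0, with Lef1 the farthest at -1.65, while pathway components lie on both sides.

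Several of the 9 genes are also expressed outside the streak, in visceral endoderm (Eomes, Lhx1, Foxa2), trophoblast (Eomes) or neural tissue (Lhx1, Evx1), so markers of other cells were read on the same arrays. Of 16 visceral endoderm markers 15 were measured and 10 passed, with 0 past 1.5-fold; their summed linear level was 3316 in GSK-J4, against 3129 in GSK-J5, 3141 in DMSO and 3083 in medium. Their median difference from GSK-J5 was -0.15, with 9 of 15 below all controls and 4 above. Named after their values were seen, the brightest of these markers, Lrp2 (10.04 in GSK-J4, with the controls at 9.43 to 9.58) and Apoe (9.98 in GSK-J4, with the controls at 9.80 to 9.88), read above all controls and weigh most in the sum. Among the genes past the filter, Foxq1 (6.21 in GSK-J4, with the controls at 6.77 to 7.01) and Amn (6.54 in GSK-J4, with the controls at 6.86 to 7.17) differed most from GSK-J5, and the second probe set of Foxq1 lay among the controls. Ttr and Sox7 were among the markers below the filter, and Afp averaged 6.60. Hnf4a (mean 7.22) and Ihh (mean 7.68) were among the 10 that passed. The part of visceral endoderm in the Eomes and Lhx1 values was not tested.

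Trophoblast markers gave 1 gene lower by 1.5-fold of 10 that passed, the imprinted gene Phlda2, with 9.70 in GSK-J4, against 10.36 in GSK-J5, 10.35 in DMSO and 10.37 in medium. All 14 were measured, and their median difference from GSK-J5 was -0.13. Cdx2 and Elf5 were among those below the filter. Tfap2c (mean 9.99) and Tead4 (mean 9.05) were among the 10 that passed. The summed linear level was 4634 in GSK-J4, against 5050 in GSK-J5, 4852 in DMSO and 4933 in medium. On the linear scale Phlda2 alone was lower by more than the whole sum was, against each control. By any amount 6 of the 14 read below all controls and 3 above. Of 12 neural markers 10 were measured and 7 passed, with 0 past 1.5-fold and a median of -0.17 from GSK-J5; 7 of the 10 lay below all controls. Their sum was 1674 in GSK-J4, against 1997 in GSK-J5, 2118 in DMSO and 2114 in medium. Most of that gap is Gbx2, a gene that is also on the list of naive stem cell markers. Among the passing neural markers Gbx2 (8.78 in GSK-J4, with the controls at 9.35 to 9.46) and Sox1 (6.81 in GSK-J4, with the controls at 7.23 to 7.44) were the farthest from GSK-J5. The margin was only -0.04 in a further probe set of Gbx2. Feeder fibroblast markers, 15 measured and 10 passing, had 0 past 1.5-fold, a median of -0.25 and a sum of 13751 in GSK-J4, against 13256 in GSK-J5, 12964 in DMSO and 13086 in medium. Most of that sum is Fn1, named after its values were seen, with 13.18 in GSK-J4, against 13.05 in GSK-J5, 13.00 in DMSO and 13.03 in medium. By any amount 9 of the 15 feeder markers read below all controls and 2 above. Of the genes past the filter, Thbs1 (7.06 in GSK-J4, with the controls at 7.46 to 7.54) and Col1a2 (6.45 in GSK-J4, with the controls at 6.66 to 7.03) were the farthest from GSK-J5. Dcn and Lum were among the feeder markers below the filter, while Col1a1 (mean 7.60) and Thy1 (mean 7.79) were among those that passed.

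Pluripotency markers, which check the labelled stem cell origin, were all past the filter, 16 on the naive list and 17 on the formative and epiblast list. Naive markers had 0 past 1.5-fold, a median difference from GSK-J5 of -0.01, and 7 of 16 below and 7 above all controls. Gbx2, given above, and Dppa3 (8.94 in GSK-J4, with the controls at 9.42 to 9.47) differed most. The naive markers' sum was 50039 in GSK-J4, against 49326 in GSK-J5, 48010 in DMSO and 48186 in medium. Formative and epiblast markers, which describe the state from which streak cells arise, were lower on the same array as Eomes and Lhx1. By 1.5-fold 7 of 17 were lower, beside 0.842% of the genes past the filter. GSK-J4 lay below all controls in 17 of 17, beside 35.5% of the genes past the filter, with a median of -0.49 from GSK-J5. The list was chosen with earlier results of these data known, so its counts are a description only. The summed linear level of these markers was 26688 in GSK-J4, against 34493 in GSK-J5, 34445 in DMSO and 36017 in medium. Beside Lef1 the lowest were Car4, a carbonic anhydrase, Fgf5, a growth factor of the epiblast, and Pou3f1, a POU factor, with margins of -1.58, -1.43 and -0.79. The part of the formative markers in the Eomes value was not tested.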

How the data were processed

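The authors deposited log2 expression values per probe set, and the submitters' processing notes name RMA and Affymetrix Expression Console (version 1.2.1.20); per the labels' protocols 100 ng of total RNA was amplified and labelled with biotin. RMA corrects background and sets the arrays to a common distribution, so a shift shared by most genes would be removed. For the expression values, genome build, array scanner files and detection calls were not used here. Precision is limited by there being 4 arrays.

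Of the 41345 probe sets, 23521 had 1 gene symbol in the platform annotation, 1814 had several and 16010 were not named there; only those with 1 symbol were used. Computed here, with Python 3.11.15, numpy 2.4.6 and pandas 2.3.3, were the brightest probe set per gene, the level filter, margins, counts, list medians and motif matches. The size rule was checked on simulated data in which the changes were far larger than its threshold. That check therefore does not cover margins close to 1.5-fold, such as that of Eomes. No test was run. The 10 genes, 11 lists and rules were chosen with earlier results of these data known. Named were the 10 genes, up to 4 list genes per direction past 1.5-fold, or otherwise the 2 genes past the level filter that were farthest from GSK-J5, and the 3 genes closest to Eomes. Other genes, among them the markers named as below the filter, were chosen after their values were seen. Alternatives were other filters, folds, scalings (median centring, quantile, loess with span 0.3 from statsmodels 0.14.6), probe set summaries and leaving out each control array.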

Additional observations from a re-analysis of the deposited data

How the results depend on the processing

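With 1 array for each treatment, no difference has a replicate check. No paired analysis was possible because each group holds 1 array. The count of passing genes lower in GSK-J4 by 1.5-fold (1, Eomes) was 2 (with Lhx1) at a threshold of 0.32 on the log2 scale, where 3.96% of the genes past the filter were lower, and 0 at 2-fold (0.105%). Leaving out a control array gave 1 to 2, with Lhx1 added without medium. The count above all controls by any amount was 0 to 1 without a control, the 1 being Evx1 without GSK-J5; the count below all controls was 5 to 6, the sixth being Gsc without DMSO. No gene of the set passed a filter at the 60th percentile (8.08), so no count could be given there. The medians kept their sign under every alternative run, -0.38 to -0.19 against GSK-J5, -0.31 to -0.28 against DMSO and -0.21 to -0.05 against medium, and so did the GSK-J4 minus GSK-J5 difference of each of the 9 genes under the 3 rescalings. Each moved by less than 0.135, the median SD of these genes over the 3 controls.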
